A study of Mus musculus with 6 samples.

Results

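Hypoxia sensing and hypoxia-inducible factor (HIF) target genes were examined in mouse kidneys labelled DKD, for diabetic kidney disease, and in control kidneys. The set holds 10 genes chosen by symbol, all of which were found among the 55401 Ensembl gene IDs of the count table. By the IDs of the table these are Hif1a (ENSMUSG00000021109, chromosome 12), Epas1 (ENSMUSG00000024140, chromosome 17), Egln1 (ENSMUSG00000031987, chromosome 8), Egln3 (ENSMUSG00000035105, chromosome 12), Vhl (ENSMUSG00000033933, chromosome 6), Epo (ENSMUSG00000029711, chromosome 5), Car9 (ENSMUSG00000028463, chromosome 4), Bnip3 (ENSMUSG00000078566, chromosome 7), Ankrd37 (ENSMUSG00000050914, chromosome 8) and Ndrg1 (ENSMUSG00000005125, chromosome 15). RNA of whole kidneys was sequenced in 3 DKD and 3 control libraries. These were poly(A)-selected, and their second strand was marked and removed. The labels give the group as a genotype tag of DKD or Control and number the libraries of each group, but the strain, sex, age and way of inducing diabetes are not stated there. Nor do they say that each library came from a separate animal, so a p-value here speaks only of the variation among the 6 libraries, some or all of which may be technical. Values given below for DKD or control kidneys are those of the libraries of that group.

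HIF is a transcription factor made of an alpha subunit, whose protein is unstable when oxygen is plentiful, and a stable partner, Arnt. With oxygen, prolyl hydroxylases of the Egln family mark the alpha subunits, and the Vhl protein recognises the mark and sends them for degradation. Under low oxygen the subunits persist, pair with Arnt and bind hypoxia response elements near genes of oxygen delivery, metabolism and cell survival, some of which, such as Egln3, feed back on the pathway. In the kidney HIF-1alpha acts mainly in tubular epithelium and HIF-2alpha in endothelial and interstitial cells, among them the fibroblast-like cells that make erythropoietin. Since the main control is over protein stability, the mRNA of a subunit does not measure HIF activity.

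The core of a hypoxia response element reads ACGTG or GCGTG. RefSeq promoters (GRCm38.p6) were held for 8 of the 10 genes, Hif1a, Egln1, Egln3, Vhl, Epo, Car9, Bnip3 and Ankrd37, and the 250 bases before the start were searched on both strands. ACGTG was found in 6 of the 8, against 16.6% of 32851 promoters of the same length, and either core in 7 of the 8, against 38.6%. The longer TACGTGC stood in 3, Egln1, Car9 and Ankrd37, against 0.679% of all promoters. A CACGTG palindrome, as in Hif1a and Bnip3, counts on each strand, and a CACGCGTG run in Ankrd37 holds overlapping GCGTG cores. Vhl had neither core in this window. The 8 genes were listed for this pathway, so these shares are a description only. GC content of their windows ran from 50.8% for Egln3 to 86% for Egln1, and no background of like GC content was taken. The stretches around the ACGTG nearest to the start are shown for the 6 genes that have one, since they place the best-known letters of the pathway beside the genes whose levels follow. Each is written 5′ to 3′ on the gene's strand, with every core of either kind in capitals on whichever strand it lies. The TACGTGC and the CACGCGTG run of Ankrd37 and the palindrome of Hif1a lie farther from the start, outside the stretches shown. A match is only a match of letters in these windows.
Car9, chr4:43506980-43507025, plus strand: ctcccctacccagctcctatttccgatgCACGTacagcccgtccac
Egln1, chr8:124949291-124949350, minus strand: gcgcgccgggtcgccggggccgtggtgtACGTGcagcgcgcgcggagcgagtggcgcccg
Hif1a, chr12:73907769-73907828, plus strand: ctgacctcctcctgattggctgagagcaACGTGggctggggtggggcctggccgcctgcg
Bnip3, chr7:138909582-138909641, minus strand: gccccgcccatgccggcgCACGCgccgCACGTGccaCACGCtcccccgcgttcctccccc
Ankrd37, chr8:45999851-45999884, minus strand: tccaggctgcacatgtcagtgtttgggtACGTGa
Egln3, chr12:54204072-54204124, minus strand: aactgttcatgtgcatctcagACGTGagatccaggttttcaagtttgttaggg

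The libraries held 71588579 to 77417638 counts in DKD and 64816622 to 72845799 in control kidneys. DKD replicate 1 stood apart from the rest. It lay with the controls rather than with the other DKD libraries on the first principal component (44.4% of the variance) and alone on the second (21%). Of 14 hepatocyte markers 12 were highest in it, 3 of them (Serpina3k, Ahsg and Mup3) had no count in the other 5 libraries, and the summed level was 4388 CPM there against 455 to 635 CPM in the others. Here CPM is the usual count relative to library size, scaled with TMM factors. All 6 erythroid markers were also highest in it (891 CPM summed, against 328 to 561). Kidney identity was plain in every library, with proximal tubule markers at 13220 to 18340 CPM summed in DKD and 19170 to 21260 CPM in control kidneys. Results below are given with all 6 libraries and, where a call depends on it, also without DKD replicate 1. Other marker lists also differed between the groups. Urothelial markers, 6 genes, were at 15.4, 75.9 and 61.4 CPM summed in DKD and at 10.3, 1.26 and 7.87 CPM in control kidneys, and podocyte markers, 8 genes, at 357 to 456 CPM in DKD and 275 to 350 CPM in control kidneys. The part of these lists in the results was not tested. In whole kidneys, fewer cells of a type and less RNA per cell cannot be told apart.

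**Figure D1:**
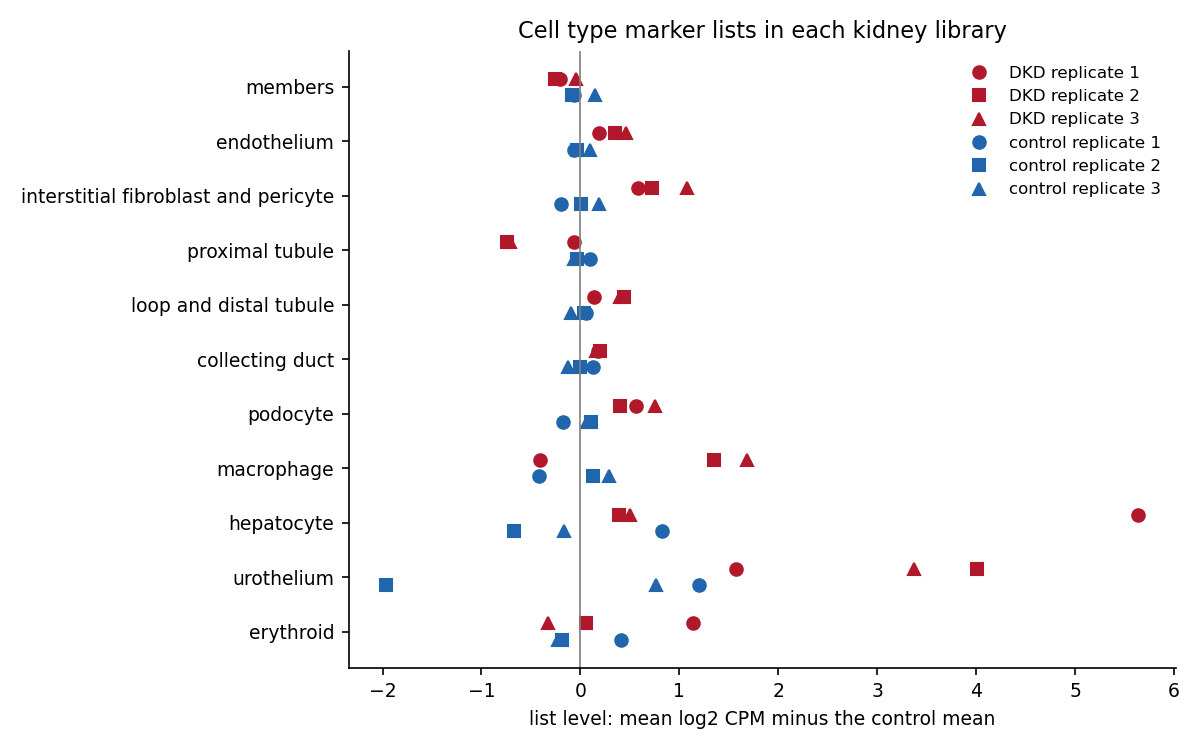
Level of 10 cell type marker lists in each library, and of the hypoxia set in the row named members (points, DKD red and control blue, 1 shape per replicate number). The level is the mean log2 CPM of the genes of a list that passed the low count filter, minus its mean in the control libraries. Of the hepatocyte list 9 of 14 genes passed, without Serpina3k, Ahsg and Mup3, and of the erythroid list 5 of 6. The hepatocyte list stood at 5.64 in DKD replicate 1 and between -0.67 and 0.83 in the other libraries.

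Across the 10 genes, Hif1a was higher and Egln1 and Car9 were lower in every DKD library than in every control library, and the other 7 overlapped between the groups. With the quasi-likelihood test of edgeR on all 6 libraries, 0 of the 9 genes tested passed an adjusted p of 0.05, and 0% of all 19197 genes did. Epo was too low to be tested. At an unadjusted p under 0.05 the 3 genes above passed, 1 higher and 2 lower, beside 19.2% of all genes. CPM of the groups did not overlap for 3 of the 9, beside 25.4% of all genes, so the share is near the background. Without DKD replicate 1 edgeR called the same 3 genes (15.5% of all genes called). Limma-voom with sample quality weights on all libraries called them too (17.7% of all genes called), while DESeq2 called 0 (8.24%). The quality weights gave DKD replicate 1 the lowest weight of the 6 libraries, 0.302, so both fits play down the same library. For all 3 genes it was the DKD library nearest to the controls, so leaving it out could only widen the differences of their means. The median log2 difference of the 9 was -0.01, beside 0.02 over all genes tested.

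**Figure D2:**
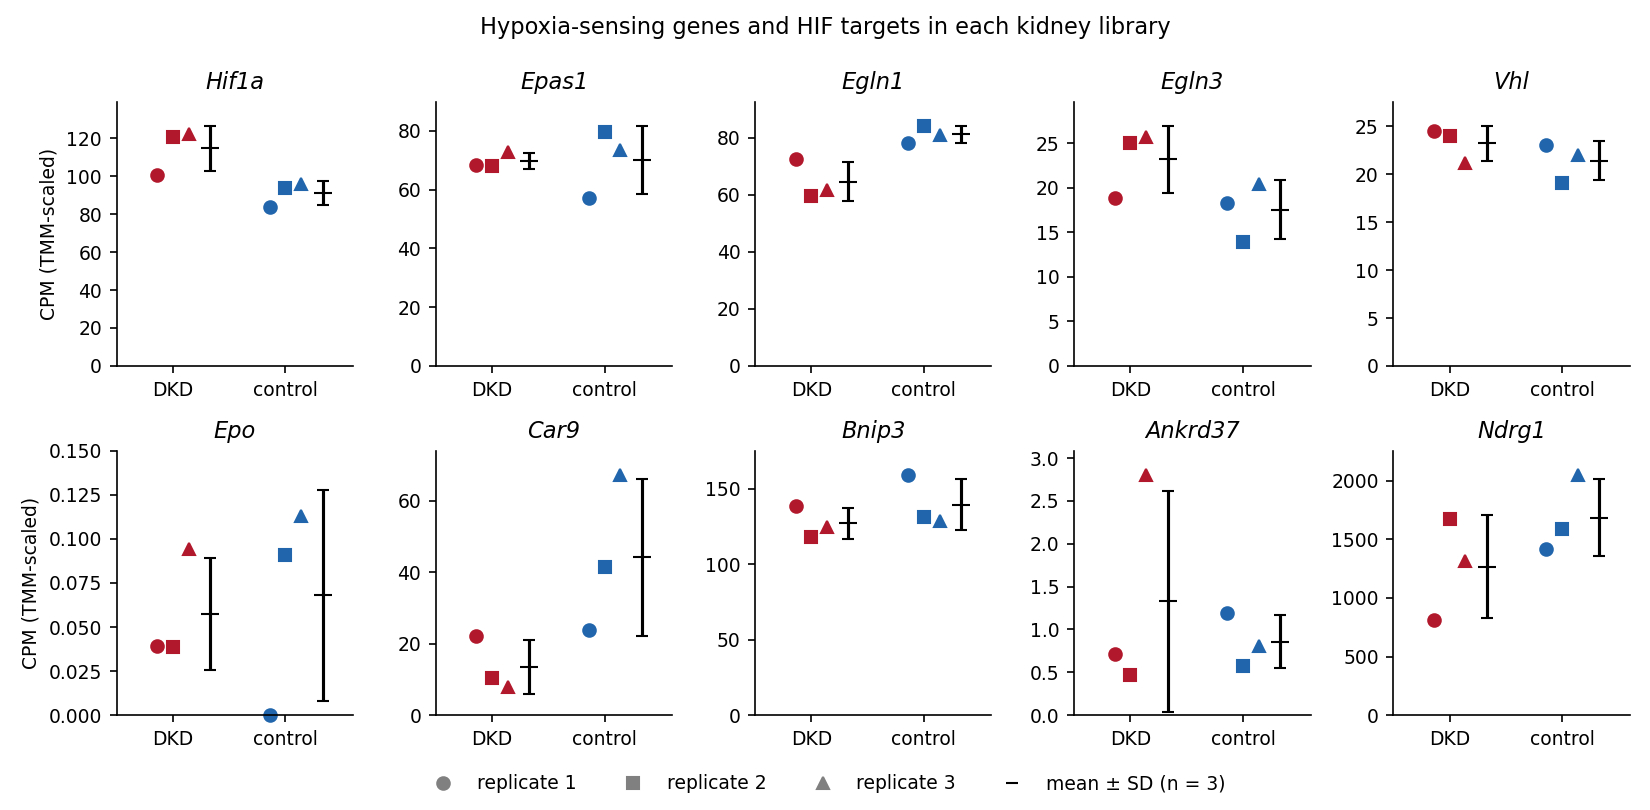
CPM of the 10 genes in each library (points, linear axes from 0, 1 shape per replicate number), with the mean and SD of each group (n = 3) as black bars. Hif1a at 101 to 122 CPM in DKD lay above the controls, and Egln1 and Car9 lay below them.

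Hif1a encodes HIF-1alpha, the oxygen-regulated subunit that drives glycolytic targets. It had 100.8, 121 and 122 CPM in DKD replicates 1 to 3, against 83.7, 93.7 and 95.8 CPM in control replicates 1 to 3. All DKD values were above all control values, and DKD replicate 1 was the DKD library nearest to the controls. The means were 115 ± 12 CPM in DKD and 91.1 ± 6.48 CPM in control kidneys (SD, n = 3), a log2 difference of 0.33 ± 0.11 (SE; adjusted p = 0.187 with edgeR). Without DKD replicate 1 the difference was 0.41 ± 0.10 (adjusted p = 0.0354 with edgeR), and with quality weights 0.36 ± 0.08 (adjusted p = 0.0268 with limma-voom). An antisense gene, Gm15283, shares 330 exon bases with Hif1a and had 5 to 23 counts in the libraries, where Hif1a had 4974 to 10371. Summed macrophage markers, another place of Hif1a expression, were at 239, 778 and 909 CPM in DKD and 275, 437 and 512 CPM in control kidneys, and their part in the level of Hif1a was not tested.

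Epas1 encodes HIF-2alpha, the subunit that controls Epo. Its CPM values were 68.4, 67.9 and 72.7 in DKD, against 57.1, 79.7 and 73.6 in control kidneys. The DKD values all lay inside the control range. The means were 69.7 ± 2.63 and 70.1 ± 11.7 CPM in DKD and control kidneys (SD, n = 3), and the log2 difference was -0.01 ± 0.13 (adjusted p = 0.980 with edgeR), with a sign that turned under several settings. Summed endothelial markers, 14 genes of a cell type that carries Epas1, were at 467 to 630 CPM in DKD and 424 to 478 CPM in control kidneys. Of the 14, 6 were higher without overlap and 0 lower, beside 13.8% and 11.5% of all genes. Summed interstitial fibroblast and pericyte markers, 12 genes, were at 304 to 389 CPM in DKD and 221 to 290.2 CPM in control kidneys. Of the 12, 8 were higher without overlap and 1 lower, beside 13.8% and 11.5% of all genes. The lower gene was Nt5e, the most abundant of the list by CPM. It had 87.6, 73.8 and 90.5 CPM in DKD, against 99.4, 151 and 117 CPM in control kidneys. Among the higher genes, Col1a1 had means of 27.6 and 7.54 CPM and Col3a1 of 55.4 and 15.5 CPM in DKD and control kidneys. None of the markers of either list was at 0 in all libraries, and their part in the level of Epas1 was not tested.

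The balance of the subunits was taken within each library as log2 CPM of Epas1 minus log2 CPM of Hif1a. It was -0.56, -0.83 and -0.75 in DKD, against -0.55, -0.23 and -0.38 in control kidneys. All DKD values were below the control values, DKD replicate 1 by less than 0.01. The mean difference was -0.32, with p = 0.1 in an exact two-sided permutation test over the 6 libraries, which is the smallest p that 3 against 3 allows.

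The fitted differences of the prolyl hydroxylases had both signs, and a difference between them was not tested. Egln1, also called PHD2 and the main oxygen sensor of the family, had 72.5, 59.7 and 61.8 CPM in DKD, against 78.2, 84.3 and 81.0 CPM in control kidneys. The groups did not overlap, and DKD replicate 1 was the DKD library nearest to the controls. The means were 64.7 ± 6.86 and 81.2 ± 3.02 CPM in DKD and control kidneys (SD, n = 3), a log2 difference of -0.33 ± 0.10 (adjusted p = 0.167 with edgeR). It was -0.43 ± 0.09 without DKD replicate 1 (adjusted p = 0.0244 with edgeR) and -0.42 ± 0.08 with quality weights (adjusted p = 0.0170 with limma-voom).

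Egln3, or PHD3, is a hydroxylase that HIF itself induces in many cells. It had 18.9, 25.0 and 25.7 CPM in DKD, against 18.3, 13.9 and 20.4 CPM in control kidneys. DKD replicates 2 and 3 were above all controls, whereas DKD replicate 1 lay between control replicates 1 and 3. The log2 difference was 0.40 ± 0.18 (adjusted p = 0.279 with edgeR), and 0.52 ± 0.17 without DKD replicate 1 (adjusted p = 0.0792 with edgeR).

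Vhl encodes the substrate receptor of the ubiquitin ligase that removes hydroxylated HIF-alpha. Its values were 24.6, 24.0 and 21.1 CPM in DKD, against 23.1, 19.1 and 22.1 CPM in control kidneys, so the groups overlapped. The log2 difference was 0.12 ± 0.12 (adjusted p = 0.601 with edgeR). The named pseudogene Vhl-ps1 had no counts in any library.

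Among the targets, Car9 had the largest fitted difference of the 9 genes. It encodes carbonic anhydrase IX, an enzyme of the cell surface that helps to control pH. Its values were 22.1, 10.5 and 7.94 CPM in DKD, against 23.7, 41.5 and 67.2 CPM in control kidneys. The groups did not overlap, but DKD replicate 1 came close to control replicate 1, and both groups spread widely. The means were 13.5 ± 7.54 and 44.1 ± 21.9 CPM in DKD and control kidneys (SD, n = 3), which is 3.27-fold lower in DKD, and the log2 difference was -1.71 ± 0.52 (adjusted p = 0.175 with edgeR).

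Without DKD replicate 1 the difference of Car9 was -2.27 ± 0.46 (adjusted p = 0.0299 with edgeR), and with quality weights -2.22 ± 0.38 (adjusted p = 0.0152 with limma-voom). DESeq2 gave an adjusted p of 0.0648. Proximal tubule markers, 15 genes, were lower in the DKD libraries too, at 18340, 13670 and 13220 CPM summed, against 21260, 19390 and 19170 CPM in control kidneys. Over control replicates 1 to 3 these sums fell while Car9 rose, and over DKD replicates 1 to 3 both fell. Sums of the loop and distal tubule list and of the collecting duct list overlapped between the groups. The part of these lists in the results of Car9 and Egln1 was not tested. Without control replicate 3, the library with the highest Car9, the difference was -1.27 (adjusted p = 0.342 with edgeR). The antisense gene Gm12454 shares 214 exon bases with Car9 and had 261, 176 and 111 counts in DKD and 217, 148 and 257 in control kidneys, where Car9 had 1681, 806 and 674 counts in DKD and 1408, 2736 and 4765 in control kidneys. Whether the counting used strand is not given in the sources used here, so reads in the shared bases cannot be told apart.

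Bnip3, a mitochondrial protein that promotes mitophagy and a common HIF-1 target, had 138, 118 and 125 CPM in DKD, against 159, 131 and 128 CPM in control kidneys. The groups overlapped, and the log2 difference was -0.14 ± 0.12 (adjusted p = 0.566 with edgeR), turning to 0.02 with library size alone as the scale.

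Ndrg1, a stress-responsive gene that hypoxia induces in many cell lines, was the most counted of the set. It had 809, 1678 and 1317 CPM in DKD, against 1421, 1587 and 2051 CPM in control kidneys. DKD replicate 1 was the lowest of the 6 libraries. The difference was -0.41 ± 0.27 on the log2 scale (adjusted p = 0.440 with edgeR) and -0.18 ± 0.18 without that library (adjusted p = 0.551 with edgeR).

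Ankrd37, a small ankyrin-repeat protein and HIF-1 target, had few reads. Its counts were 54, 36 and 238 in DKD, against 71, 38 and 57 in control kidneys, which is 0.709, 0.467 and 2.80 CPM against 1.20, 0.576 and 0.804 CPM. DKD replicate 3 alone was high, and the log2 difference of 0.63 ± 0.70 (adjusted p = 0.647 with edgeR) became -0.54 without it (adjusted p = 0.713 with edgeR). Ankrd37 shares 349 exon bases with Lrp2bp on the opposite strand, which had 28, 29 and 54 counts in DKD and 12, 32 and 12 in control kidneys. It also shares 57 exon bases on the opposite strand with Ufsp2, which had far more counts than Ankrd37, 3567, 3000 and 3300 in DKD and 2884, 2863 and 2701 in control kidneys.

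Epo encodes erythropoietin, the hormone of red cell production whose adult source is mainly the kidney. It had 3, 3 and 8 counts in DKD and 0, 6 and 8 in control kidneys, 14 in each group. A count of 0 allows up to 3 counts, or 0.0353 to 0.0505 CPM in these libraries, by counting error alone. The values were 0.0389 to 0.0943 CPM in DKD and 0 to 0.113 CPM in control kidneys, so a difference was not detectable at this depth. Epo also shares 104 exon bases with Gnb2 on the same strand, which had 10145 to 13090 counts in the libraries.

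**Figure D3:**
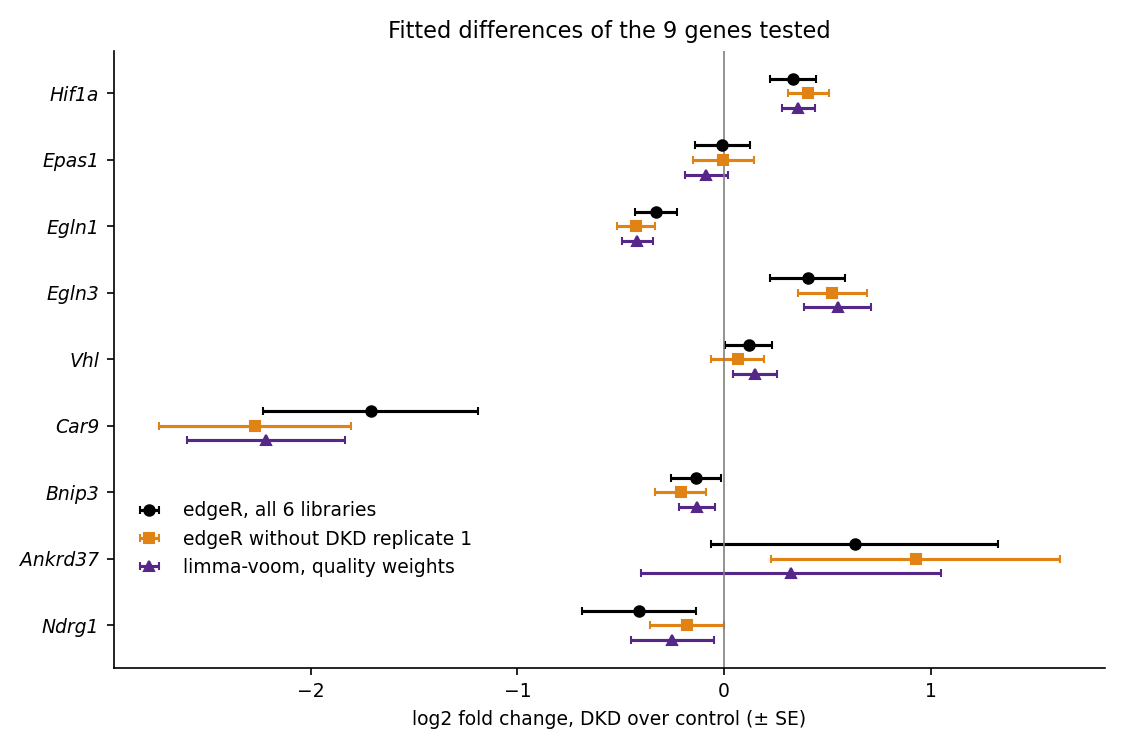
Log2 fold change of DKD over control (points) with its SE (bars) for the 9 genes tested, from edgeR with all 6 libraries, from edgeR without DKD replicate 1, and from limma-voom with sample quality weights. Hif1a, Egln1 and Car9 lay farther from 0 in both of the other fits, as at -2.27 and -2.22 for Car9 beside -1.71.

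Levels of different genes were compared per kilobase of exon, with exon lengths from GENCODE M21. In DKD kidneys the mean CPM per kilobase was 192 for Ndrg1, 56.1 for Bnip3, 19.4 for Hif1a, 18.0 for Egln1, 12.5 for Epas1, 8.73 for Egln3, 7.76 for Vhl, 5.86 for Car9, 0.862 for Ankrd37 and 0.0673 for Epo. In this order the ranges over the 3 DKD libraries overlapped between Hif1a and Egln1, Egln3 and Vhl, and Vhl and Car9, and between no other neighbours. In control kidneys it was 256 for Ndrg1, 61.6 for Bnip3, 22.6 for Egln1, 19.2 for Car9, 15.5 for Hif1a, 12.5 for Epas1, 7.15 for Vhl, 6.59 for Egln3, 0.558 for Ankrd37 and 0.0794 for Epo. There the ranges overlapped between Egln1 and Car9, Car9 and Hif1a, Hif1a and Epas1, and Vhl and Egln3. Egln1 was above Hif1a in each control library by this measure, while in DKD the ranges of these genes overlapped, and Car9 had rank 8 in DKD and rank 4 in control kidneys.

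Egln1 had the smallest p of the set, and the 3 tested genes closest to it in profile were Mlec, Trak2 and Ublcp1. Their log2 CPM, centred on the mean over the 6 libraries, differed from that of Egln1 by 0.0179, 0.0253 and 0.0258 on average. Mlec, which encodes a lectin of the endoplasmic reticulum, had 706, 583 and 598 CPM in DKD, against 769, 789 and 796 CPM in control kidneys. Since likeness over these libraries chose the 3 genes, their levels are a description only, and for Trak2 the groups overlapped.

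The rest of the sensing machinery, 15 genes from Arnt and Egln2 to the ligase subunits Cul2, Elob, Eloc and Rbx1, had log2 differences of -0.49 to 0.64. With edgeR 0 of 15 passed the threshold, and 0 also at an unadjusted p under 0.05, beside 19.2% of all genes. Limma-voom with quality weights, DESeq2 and edgeR without DKD replicate 1 called 0 as well, beside 17.7%, 8.24% and 15.5% of all genes. The median log2 difference was -0.08, beside 0.02 over all genes, and 14 of 15 lay within 0.5 of 0. CPM did not overlap between the groups for P4htm, a prolyl hydroxylase of the endoplasmic reticulum, and Egln2, or PHD1, which is 2 of 15 beside 25.4% of all genes.

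P4htm had 2.27, 2.19 and 1.79 CPM in DKD, against 1.16, 1.77 and 1.09 CPM in control kidneys (log2 difference 0.64 ± 0.30, adjusted p = 0.292 with edgeR). Egln2 had 55.7, 51.8 and 45.4 CPM in DKD, against 69.0, 56.1 and 57.7 CPM in control kidneys (log2 difference -0.26 ± 0.12, adjusted p = 0.293 with edgeR). Egln2 thus stood on the same side as Egln1, and Egln3 on the other, by fitted values that did not pass the threshold. The genes with the next smallest p were Siah2, a ubiquitin ligase that acts on the hydroxylases (-0.49 ± 0.24), and Rbx1 (-0.18 ± 0.10; log2, SE).

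Glycolytic HIF targets, 20 genes, had fitted differences of both signs, 10 higher and 10 lower. With edgeR 0 of 20 passed the threshold, and at an unadjusted p under 0.05 there were 5 higher and 1 lower, beside 12.2% and 7.05% of all genes. DESeq2 called 3 higher and 0 lower (6.25% and 1.99% of all genes), limma-voom with quality weights 5 higher and 2 lower (9.94% and 7.75%), and edgeR without DKD replicate 1 5 higher and 2 lower, where it called 9.67% of all genes higher and 5.84% lower. The 5 higher genes of the last 2 fits were not the same. Both called Pfkfb3, Pfkp and Pdk1, but limma-voom also called Hk1 and Gys1, and edgeR without DKD replicate 1 Slc16a3 and Hk2. The median log2 difference of the list was -0.03.

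Pfkfb3, which makes the activator of phosphofructokinase, had 25.4, 32.9 and 40.2 CPM in DKD, against 12.8, 14.2 and 13.3 CPM in control kidneys. All DKD values were above all control values, and the log2 difference was 1.29 ± 0.17 (adjusted p = 0.103 with edgeR, 0.00157 without DKD replicate 1). Pdk1, a kinase that inhibits pyruvate dehydrogenase, had 44.0, 49.3 and 47.9 CPM in DKD, against 31.0, 29.9 and 25.3 CPM in control kidneys. The groups lay well apart, with a log2 difference of 0.71 ± 0.11 (adjusted p = 0.103 with edgeR, 0.00860 without DKD replicate 1).

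Gys1, glycogen synthase, differed by 0.28 ± 0.08 and Hk1, a hexokinase, by 0.26 ± 0.08 (log2, SE; adjusted p = 0.164 and 0.176 with edgeR), both without overlap. For Gys1 and Hk1 the adjusted p was 0.0570 and 0.149 with edgeR without DKD replicate 1. It was 0.0296 and 0.0470 with limma-voom and quality weights. Tpi1, an abundant enzyme named here after its values were seen, was on the other side, at 761, 535 and 571 CPM in DKD, against 961, 871 and 795 CPM in control kidneys (log2 difference -0.49 ± 0.16, adjusted p = 0.185 with edgeR). Without DKD replicate 1 it was -0.67 ± 0.12 (adjusted p = 0.0121 with edgeR). Pfkp, a phosphofructokinase named in the same way, had 56.4, 80.1 and 116 CPM in DKD, against 52.1, 51.4 and 49.9 CPM in control kidneys. All DKD values were above the controls, DKD replicate 1 by the least, and the log2 difference was 0.72 ± 0.24 (adjusted p = 0.185 with edgeR, 0.0110 without DKD replicate 1, 0.0369 with DESeq2). In all, CPM did not overlap for 7 of 20 genes, 5 higher and 2 lower, beside 25.4% of all genes. Slc2a1 and Pgk1, also named after their values were seen, overlapped between the groups. The glucose transporter Slc2a1 was at 50.2, 42.7 and 40.6 CPM in DKD, against 52.8, 44.3 and 45.4 CPM in control kidneys, and Pgk1 at 552, 464 and 473 CPM in DKD, against 628, 511 and 509 CPM in control kidneys.

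Other HIF targets, 42 genes of matrix, vessels, iron and survival, had a median log2 difference of 0.09. With edgeR 0 of 42 passed the threshold, and at an unadjusted p under 0.05 there were 8 higher and 0 lower, beside 12.2% and 7.05% of all genes. DESeq2 called 4 higher and 0 lower, beside 6.25% and 1.99% of all genes. Limma-voom with quality weights (9.94% and 7.75% of all genes) and edgeR without DKD replicate 1 (9.67% and 5.84%) each called 6 higher and 1 lower. CPM did not overlap for 5 of 42, all higher, beside 13.8% of all genes higher without overlap. Several of these targets also respond to signals other than hypoxia.

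Lox, which crosslinks collagen, had 3.65, 4.13 and 7.85 CPM in DKD, against 1.55, 1.24 and 1.62 CPM in control kidneys (log2 difference 1.82 ± 0.35, adjusted p = 0.103 with edgeR, 0.00957 without DKD replicate 1). Its relative Loxl2 had 13.2, 8.11 and 14.4 CPM in DKD, against 4.59, 4.97 and 5.33 CPM in control kidneys (1.26 ± 0.24, adjusted p = 0.103 with edgeR, 0.0254 without DKD replicate 1). All DKD libraries exceeded all control libraries for both enzymes. Beside them, the level of the interstitial marker list was 0.58, 0.73 and 1.08 in DKD and -0.19, 0.01 and 0.19 in control kidneys (mean log2 CPM minus the control mean), and its part in these results was not tested.

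Tgfa, a ligand of the EGF receptor, differed by 0.91 ± 0.21 (adjusted p = 0.117 with edgeR, 0.0224 without DKD replicate 1). Stc2, a secreted glycoprotein, differed by 1.96 ± 0.59 (adjusted p = 0.164 with edgeR, 0.0296 without DKD replicate 1). The fifth gene without overlap was Trf, transferrin, which the liver makes and which is named here after its values were seen. It stood at 487 CPM in DKD replicate 1, the library with the hepatocyte transcripts, while DKD replicates 2 and 3 had 25.6 and 39.9 CPM, against 11.01, 10.1 and 22.02 CPM in control kidneys. Its log2 difference was 3.68 ± 1.30 (adjusted p = 0.220 with edgeR), and 1.18 ± 0.37 without DKD replicate 1 (adjusted p = 0.0868 with edgeR). Vegfa, the angiogenic target best known from hypoxia and named in the same way, was at 222, 198 and 199 CPM in DKD, against 234, 212 and 232 CPM in control kidneys, so the groups overlapped (log2 difference -0.13 ± 0.10).

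**Figure D4:**
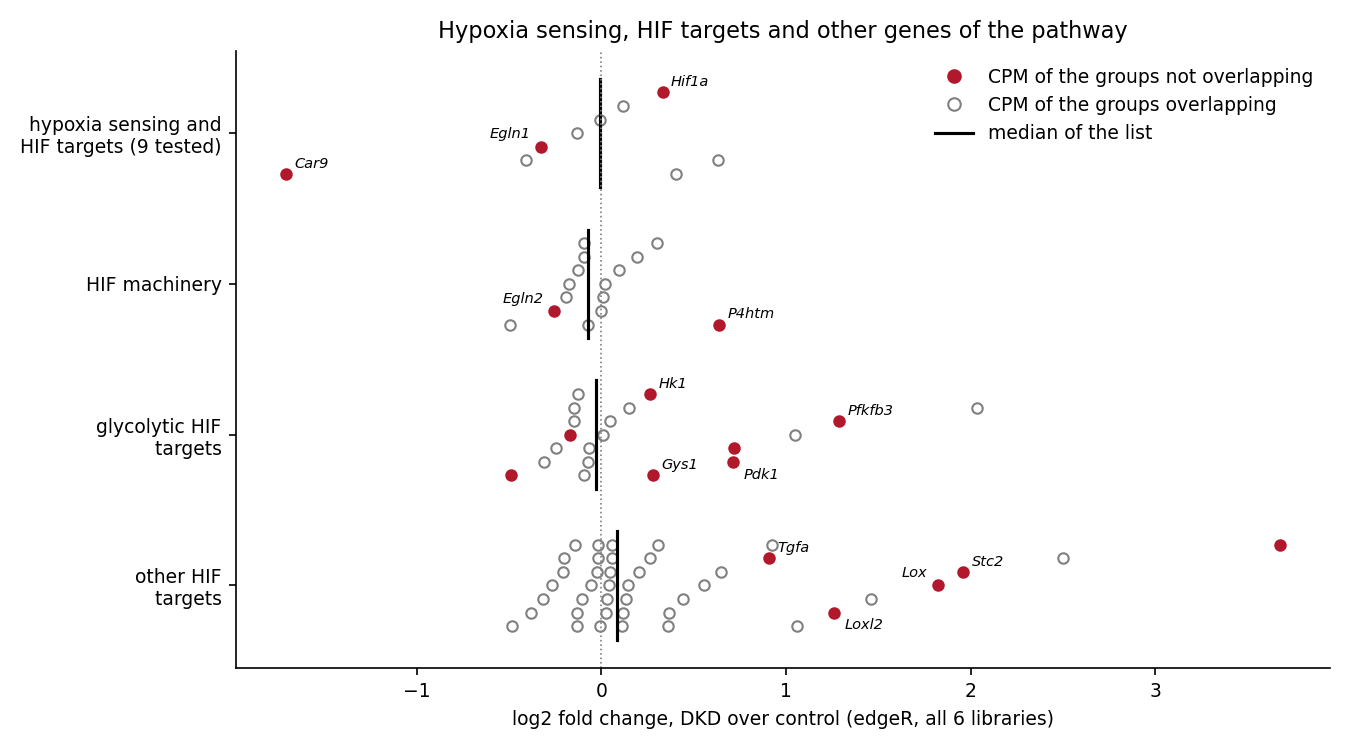
Log2 fold change of DKD over control (edgeR, all 6 libraries) for the 9 genes tested of the set and for 15, 20 and 42 other genes of the pathway, with the median of each list as a black line. Filled points are genes whose CPM did not overlap between the groups, and the names mark such genes of the set and of the naming rule. The medians lay between -0.08 and 0.09, while single genes ran from -1.71 for Car9 to 3.68 for transferrin, which was at 1.18 without DKD replicate 1.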

How the data were processed

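Read counts per gene from whole kidney RNA were compared between 3 DKD and 3 control libraries. The authors deposited raw counts, whole numbers without normalisation, for 55401 Ensembl IDs. The GRCm39 build and the tools HISAT2, fastp, edgeR and StringTie are named, per the submitters' processing notes. Their versions and roles, the annotation and the strand setting were not given there. Symbols came from a GENCODE M21 table (GRCm38) that matched 55141 IDs; exon lengths came from the same release. Promoters are from RefSeq GRCm38.p6, and their coordinates are of that build, not of the files'.

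Counts were tested in R 4.3.3 with edgeR 4.0.16 (TMM, default low count filter, robust quasi-likelihood test, two-sided, Benjamini-Hochberg adjustment over all 19197 genes tested, threshold 0.05). Alternatives used RLE or upper quartile factors, library size alone, other filters, DESeq2 1.42.0, limma-voom (limma 3.58.1) with sample quality weights, a fit without robust, a replicate block and leaving out each library. Log2 CPM for list levels used a prior count of 2. The fits were also run on simulated counts with no outlying library, so that run says nothing about DKD replicate 1. The 10 genes and the lists were chosen with earlier results of these data known. Genes named beyond the 10 are, for each pathway list, the 4 with the smallest p at a mean CPM of at least 1, and the 3 genes nearest to the profile of the gene with the smallest p; other names were chosen after their values were seen. Of the listed pathway genes, 2 were matched by another symbol (Trf for Tf, Ero1l for Ero1a), and for Aldoa, found on 2 IDs, the ID with more counts was used. The floor of 3 counts covers counting error only.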

Additional observations from a re-analysis of the deposited data

How the results depend on the processing

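Under 15 alternatives, Hif1a, Egln3 and Vhl kept a positive and Egln1, Car9 and Ndrg1 a negative log2 difference. With edgeR on all libraries 0 genes were called, against 4 with no filter, 1581 with DESeq2 and 3397 with limma-voom and quality weights, which called 3 of the 10 genes (Hif1a 0.36, Egln1 -0.42, Car9 -2.22), 7 glycolytic and 7 other HIF targets, where DESeq2 called 3 and 4. Leaving out each library gave 0 to 3101 genes, 0 to 3 of the set, and 0 to 7 in either target list. The upper ends came without DKD replicate 1. Without control replicate 1 there were 7 genes, and without DKD replicate 3 there was 1.

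Over the same omissions Hif1a ran from 0.27 to 0.41, Egln1 from -0.43 to -0.27, Car9 from -2.27 to -1.27, Epas1 from -0.14 to 0.092 and Ankrd37 from -0.54 to 1.03. Epas1 was also above 0 with upper quartile factors (0.0048), library size alone (0.14), a filter of CPM 1 in 3 libraries (0.0070) and the replicate block (0.0050), and Bnip3 was 0.016 with library size alone. That scale moved the median of all genes by 0.15, and those of the set, the machinery, the glycolytic and the other targets to 0.14, 0.077, 0.13 and 0.23. The cause of the other shifts was not tested.

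The replicate block called 0 genes. Deviations of same-numbered libraries correlated at 0.0336, 0.0227 and 0.0344, too weakly to pair them, though each library correlated best with its own number. Depth limits Epo and Ankrd37, which gave no value under the CPM filter. The Epas1 to Hif1a difference was -0.32 with the block and could not pass any threshold.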
